A study of Mus musculus with 3 samples.

Results

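The ERK pathway feedback genes described here are Dusp4, Dusp5, Dusp6, Spry1, Spry2, Spry4, Spred1, Spred2, Etv4 and Etv5. Probes were matched to these members by gene symbol, giving 10 genes of the 19751 that could be named on the array, read by 11 of its 39429 probes. Every gene had 1 probe except Etv4, which had 2, and each probe was a single spot per array. The extracellular signal-regulated kinases (ERK) are the last step of a relay that runs from growth factor receptors through Ras, Raf and MEK. Active ERK induces genes that damp the same relay: dual-specificity phosphatases remove its activating phosphates, and the Sprouty and Spred proteins restrain Ras and Raf activation at the membrane. Etv4 and Etv5 encode transcription factors of the PEA3 family, and transcripts of this kind are widely read as a measure of growth factor signalling, which endothelial cells use in response to VEGF and FGF. The arrays measure transcripts only, so ERK phosphorylation itself was not analysed here.

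The RNA came from mouse cavernous endothelial cells, primary cells of the penis of C57BL/6 mice, and was hybridised to 3 arrays, 1 per group. The groups were high glucose (30 mmol) with 200 pmol of an siRNA against Ninj1, high glucose (30 mmol), and normal glucose (5 mmol). Exposure lasted 48 h, and each RNA was a pool of 3 numbered samples. All groups shared a growth medium with 20% serum, heparin and 5 ng/ml of VEGF-A, itself a ligand that signals through ERK, and whether the remaining cells were given a control siRNA is not stated in the labels. With 1 array per group there is no replicate check and no test, so "higher" and "lower" describe these arrays and nothing beyond them. Of the gauges of error available, a difference between single spots of one probe had an SD of 0.081 on the log2 scale. The error that the scanner software attaches to each spot gave 0.20 to 0.46 for a member's log2 difference between the siRNA and high-glucose labels. Neither covers cell culture, labelling or hybridisation. The signals printed below are unscaled, whereas folds and log2 differences come from signals scaled to each array's 75th percentile, which was 2024, 1729 and 1780 on the arrays labelled siRNA, high glucose and normal glucose.

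The targeted gene went against its label. Ninj1, the target of the siRNA, gave signals of 25539 on the array labelled siRNA, against 16291 for the high-glucose label and 20413 for the normal-glucose label. After scaling, the siRNA-labelled array exceeded the high-glucose one by 1.34-fold. Group words within the file names also exchange the 2 high-glucose arrays, so every direction below belongs to an array as labelled. Of 15 endothelial markers, 11 were well above background on at least 1 array, and Tie1, Emcn, Erg and Sox18 on none. Kdr, the main VEGF receptor gene, gave 8278 under the siRNA label, against 7298 and 7440 under the high-glucose and normal-glucose labels. After scaling, this probe differed by -0.045 and -0.031 on the log2 scale. A second Kdr probe stood at 0.45, siRNA label minus high-glucose label. Pecam1 gave 72.4 under the siRNA label, against 76.5 and 61.9. Kdr and Pecam1 are named after their values were seen. The median unscaled signal of the 11 endothelial markers was 72.4, 76.5 and 63.3 under the siRNA, high-glucose and normal-glucose labels, so Kdr was far brighter than most. All 11 fibroblast markers were well above background on every array, with medians of 15038, 28035 and 28335 in the same order. These medians set different probes beside each other. In pooled RNA of a culture, fewer cells of a type and less RNA per cell cannot be told apart.

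The feedback genes did not move as one block. On the array labelled siRNA, 5 of the 10 (Dusp4, Dusp5, Dusp6, Spred1 and Etv4) were at least 2-fold higher than on the array labelled high glucose, and 1 (Spry1) was at least 2-fold lower. The remaining 4, Spry2, Spry4, Spred2 and Etv5, differed by less than 1.5-fold. Over the 15625 genes that could be compared between these arrays, 6.52% passed 2-fold upward and 8.21% downward. The median log2 difference of the members was 0.74, with a median size of 1.21, against 0.0092 and 0.34 over all genes compared. Against the array labelled normal glucose the same number of members, 5 and 1, passed 2-fold in each direction, where 6.35% and 7.93% of 15581 genes did. Both comparisons use the same siRNA array, so they are not independent of each other.

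**Figure D1:**
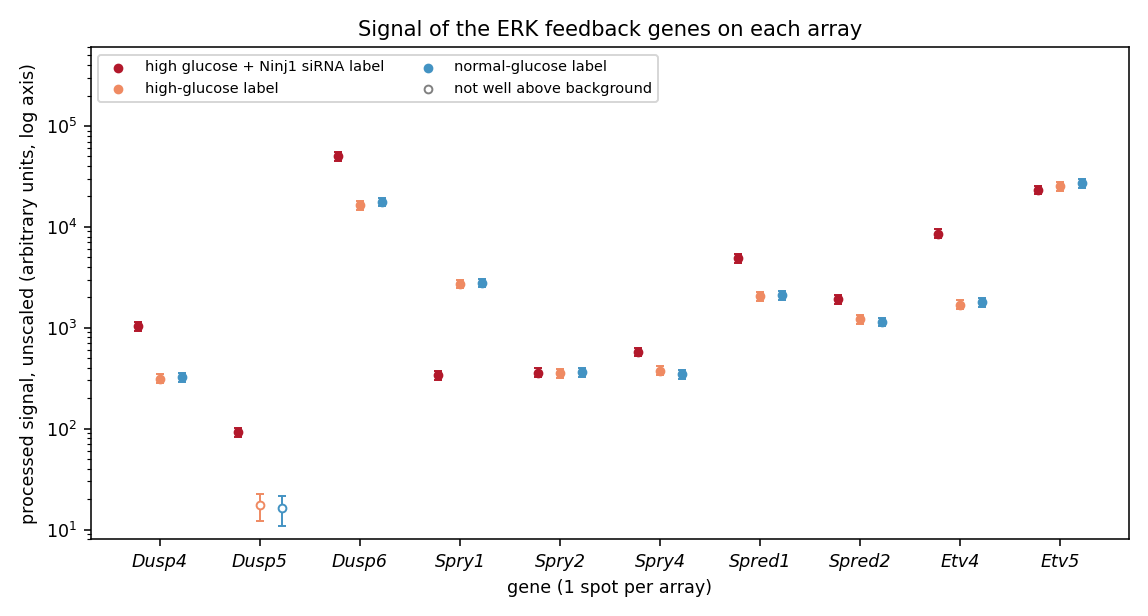
Unscaled processed signal of the 10 ERK feedback genes on a log axis (arbitrary units), 1 spot per array, for the arrays labelled high glucose with Ninj1 siRNA, high glucose and normal glucose from left to right within a gene. Bars are the scanner software's error, and open points were not well above background. The siRNA-labelled point stands farthest from the other points for Dusp4, Dusp5, Dusp6, Spry1, Spred1 and Etv4, and apart by less for Spry4 and Spred2.

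The 3 phosphatases were all higher under the siRNA label. Dusp6 encodes the cytoplasmic phosphatase MKP-3, which acts on ERK with high selectivity. Its signal was 50216 on the array labelled siRNA, against 16376 for the high-glucose label and 17740 for the normal-glucose label. That made it 2.62-fold higher than under the high-glucose label and 2.49-fold higher than under the normal-glucose label. Only the siRNA-labelled array stood apart, since the other arrays differed by -0.07 on the log2 scale. Dusp4, which encodes the nuclear inducible phosphatase MKP-2, gave 1039 on the array labelled siRNA, against 313 and 322 under the high-glucose and normal-glucose labels. It was 2.84-fold higher in both comparisons.

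Dusp5, a nuclear phosphatase that is specific for ERK, was the one member not well above background on every array. It read 92.5 on the array labelled siRNA and was not well above background under the high-glucose label (17.4) or the normal-glucose label (16.2). Its difference is therefore marked as a bound: 4.55-fold higher than under the high-glucose label and 4.82-fold higher than under the normal-glucose label. The first uses the dim signal itself, which exceeded the lowest signal well above background on that array (16.4). The second uses that lowest signal on the normal-glucose-labelled array (16.9). With scanner errors of 5.2 and 5.4 on the dim signals, neither is a strict lower limit. With normexp background correction the log2 differences were 0.61 and 0.61, below 2-fold. That setting adds an offset of 50 to each signal, which shrinks the folds of dim probes by construction. The scanner software's error was also widest for Dusp5, at 0.46 for the log2 difference from the high-glucose label, against 0.20 for each of the other 9.

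The sequence just before the start of a phosphatase gene is shown for Dusp5 and Dusp6, whose transcripts were higher on the same array, because these genes share a readout and differ in their upstream motifs. Each line gives the 250 bases before the RefSeq gene start (GRCm38.p6), 5′ to 3′ on the strand of the gene, at chr19:53528895-53529144 (plus strand) for Dusp5 and chr10:99262981-99263230 (plus strand) for Dusp6. Capitals mark matches to any motif searched.
Dusp5: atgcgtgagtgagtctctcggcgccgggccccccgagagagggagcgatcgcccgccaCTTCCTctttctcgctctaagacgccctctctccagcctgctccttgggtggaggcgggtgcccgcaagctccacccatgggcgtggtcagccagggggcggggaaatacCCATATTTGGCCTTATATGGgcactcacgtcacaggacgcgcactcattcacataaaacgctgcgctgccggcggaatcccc
Dusp6: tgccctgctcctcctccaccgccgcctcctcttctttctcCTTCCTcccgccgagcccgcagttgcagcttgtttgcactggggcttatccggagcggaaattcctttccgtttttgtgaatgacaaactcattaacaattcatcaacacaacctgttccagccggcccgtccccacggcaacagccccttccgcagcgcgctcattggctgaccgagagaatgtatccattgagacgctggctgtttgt
The Dusp5 window held 2 adjacent matches to the CArG box, the binding site of serum response factor, beginning 82 and 72 bases before the start. A CArG box occurred in 1.47% of 32851 windows of the same length and at least 2 of them in 0.0183%. Both windows held 1 match to the PEA3 motif AGGAAG, read on the opposite strand, which 29.5% of all windows hold. Neither held the ETS motif CCGGAA, the AP-1 motif TGANTCA or the cyclic AMP response element TGACGTCA, found in 3952, 2217 and 508 of the 32851 windows, where N is any base. Both strands were searched, no matches overlapped, and a match is a description of letters, not a binding site.

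Spry1 went the other way and showed the largest difference of any member. Sprouty proteins are intracellular inhibitors of receptor tyrosine kinase signalling. Spry1 gave 340 on the array labelled siRNA, against 2731 for the high-glucose label and 2787 for the normal-glucose label. Both other arrays lay far above the siRNA-labelled one, and their own log2 difference was 0.012. Spry1 was 9.41-fold lower than under the high-glucose label (log2 difference -3.23) and 9.33-fold lower than under the normal-glucose label (-3.22). Of 15625 genes compared, 71 (0.454%) lay at least as far below the high-glucose label.

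The 250 bases before the start of Spry1 are given because it was the only member at least 2-fold lower, opposite to the phosphatases (chr3:37639697-37639946, plus strand, GRCm38.p6).
Spry1: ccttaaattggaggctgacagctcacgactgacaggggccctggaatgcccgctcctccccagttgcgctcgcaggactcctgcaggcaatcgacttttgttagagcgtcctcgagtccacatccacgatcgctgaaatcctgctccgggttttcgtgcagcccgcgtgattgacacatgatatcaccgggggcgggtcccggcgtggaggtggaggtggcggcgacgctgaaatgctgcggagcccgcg
This window held none of the 5 motifs, so it has no capitals. Windows could be matched by symbol for 7 of the 10 members (8 windows, since Etv5 has 2). The CArG box was found for Dusp5 alone among them, and PEA3 matches for Dusp5, Dusp6 and Spred2. None of the 5 motifs occurred in the windows of Spred1, Spry2 and Etv5 either, and Spred1 was higher under the siRNA label. Their absence was thus not particular to Spry1, and the share of all windows without them was not computed. Windows of members had a median GC content of 62.4% and a median of 22 CpG dinucleotides, against 52.4% and 6 over all windows.

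The other Sprouty genes did not follow Spry1. Spry2 gave 359 under the siRNA label, against 352 for the high-glucose label and 364 for the normal-glucose label, so the 3 unscaled signals nearly coincided. After scaling it was 1.15-fold lower than under the high-glucose label, by 0.20 on the log2 scale, which is no more than the scanner software's error, and unscaled the sign turned (0.028). Spry4, an inhibitor that works together with Spred1 on Ras, gave 578 under the siRNA label, against 376 and 347. Its scaled differences were 1.31-fold higher than the high-glucose label and 1.46-fold higher than the normal-glucose label. The family relative Spry3 read 95.8 under the siRNA label and 18.9 under the high-glucose label, 4.34-fold higher, and was not well above background under the normal-glucose label (16.5). The high-glucose signal of Spry3 lay near the lowest signal well above background on that array (16.4), so its fold rests on a dim signal. The 4 Sprouty genes thus covered log2 differences from -3.23 to 2.12 between the same arrays, with Spry3 at the upper end.

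Spred genes were higher in each case, to different degrees. Spred1 recruits the Ras inactivator neurofibromin to the membrane. It gave 4902 on the array labelled siRNA, against 2040 for the high-glucose label and 2102 for the normal-glucose label. Spred1 lay just past the 2-fold line, at 2.05-fold in both comparisons, and at 0.998 on the log2 scale with quantile normalization it lay just inside it. Spred2, a close relative, gave 1914 under the siRNA label, against 1211 and 1147, or 1.35-fold and 1.47-fold higher. The third family gene, Spred3, gave 412 under the siRNA label, against 130 for the high-glucose label and 201 for the normal-glucose label, 2.71-fold higher than the high-glucose label.

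The PEA3 transcription factors split. Etv4 was read by 2 probes, the only member with such an internal check. On the brighter probe it gave 8549 under the siRNA label, against 1696 for the high-glucose label and 1780 for the normal-glucose label. On the other probe the signals were 2075, against 367 and 368. The scaled differences from the high-glucose label were 4.31-fold and 4.83-fold higher, and from the normal-glucose label 4.22-fold and 4.96-fold higher, in the same direction on both probes. Etv5, which is also induced by ERK, gave 23255 under the siRNA label, against 25212 and 27112, and was 1.27-fold and 1.33-fold lower. Etv1, the remaining PEA3 gene, gave 25853 under the siRNA label, against 17510 and 18100, 1.26-fold higher than the high-glucose label. Of the 3 family genes Etv4 alone passed 2-fold between these arrays.

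**Figure D2:**
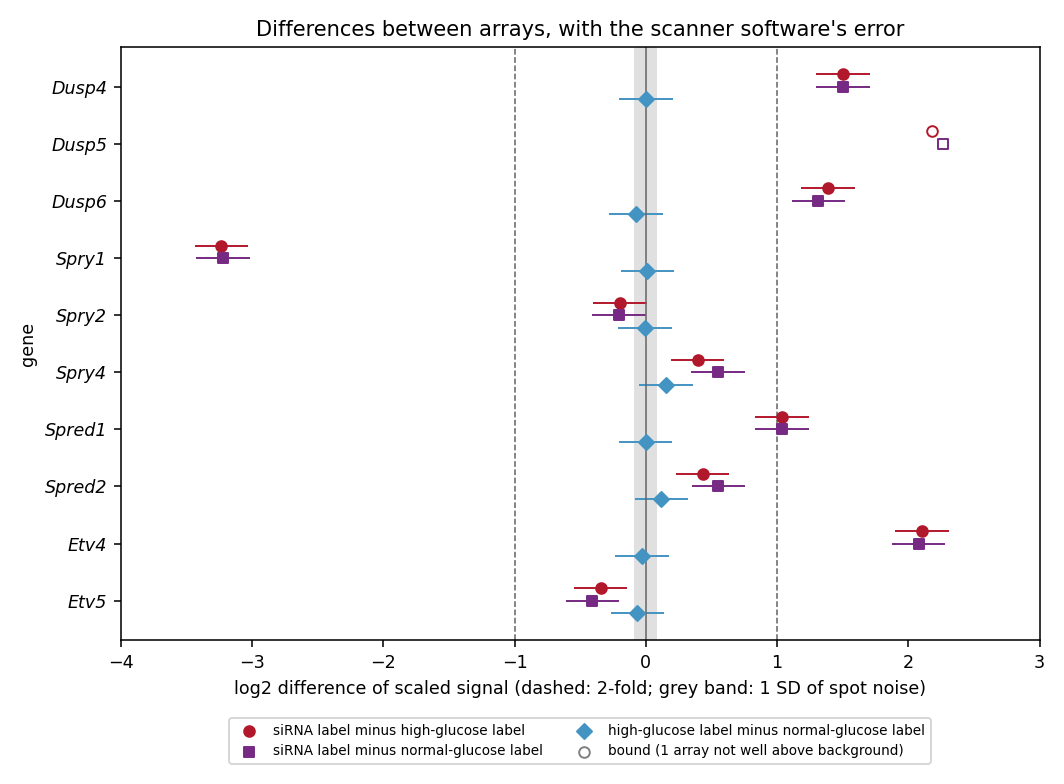
Log2 difference of the scaled signal for each ERK feedback gene in 3 comparisons of arrays, with bars for the scanner software's error and open symbols, without bars, for bounds. Dashed lines mark 2-fold and the grey band 1 SD of spot noise. Both comparisons that use the siRNA-labelled array give nearly the same values, from -3.23 for Spry1 to 2.27 for Dusp5, while high glucose minus normal glucose stays between -0.07 and 0.15.

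The feedback genes were nearly level when the high-glucose label was set against the normal-glucose label. Of the 9 members that could be compared, 0 passed 2-fold in either direction, where 0.816% and 0.69% of 15081 genes did. Dusp5 was not well above background on either array and has no value. The log2 differences ran from -0.07 (Dusp6) to 0.15 (Spry4), and 7 of the 9 lay within the spot noise of 0.081. The exceptions were Spry4 at 0.15 and Spred2 at 0.12, both below the scanner software's error of 0.20. The median size of a member's difference was 0.028, against 0.064 over all genes compared. The quartiles over all genes compared were -0.071 and 0.055, so lying within the spot noise was not particular to the members. Between the siRNA and high-glucose labels all 10 members lay past 2 SDs of spot noise and 7 of 10 past 2 scanner errors. These counts include Dusp5, whose difference is marked as a bound. The shares of all genes past these lines were not computed, so neither count is read as particular to the members. Over the 15625 genes compared between these arrays the median size was 0.34, itself past 2 SDs of spot noise, so passing that line was common.

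Other MAP kinase phosphatases were read in the same way, with 1 probe standing for a gene, the brightest, in all counts over lists. Set against the high-glucose label, 3 of 7 passed 2-fold upward under the siRNA label and 0 downward, with a median log2 difference of 0.44. Dusp9, a cytoplasmic ERK phosphatase, gave 334 under the siRNA label, against 57.5 for the high-glucose label and 49.1 for the normal-glucose label, 4.96-fold higher than the high-glucose label. Dusp2, a nuclear phosphatase, gave 1083 under the siRNA label, against 204 and 197, 4.54-fold higher. Dusp10, which acts on the stress kinases JNK and p38, was 2.30-fold higher. Dusp1, the immediate early phosphatase of the same family, differed by -0.45 on the log2 scale, and the remaining 3 lay between -0.30 and 0.44. The highest of these, Dusp16, has a second probe at 1.08, past 2-fold, and is named for that disagreement.

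Among 11 other negative regulators of receptors and Ras, 1 passed 2-fold upward and 0 downward, around a median log2 difference of -0.019. That gene was Errfi1, a feedback inhibitor of the EGF receptor, with signals of 85164 under the siRNA label, against 34627 and 35547, 2.10-fold higher than the high-glucose label. The Ras inactivators Rasa1 and Rasa2 were 1.52-fold and 1.54-fold higher, whereas Rasa3 was 1.56-fold lower. Of 18 core genes from adaptor to ERK, 0 passed 2-fold in either direction on their brightest probes. A second Grb2 probe did, at -1.02, and the probes of Nras reached 0.87 (named after its value was seen). On the brightest probes the log2 differences ran from -0.67 for the adaptor Grb2 to 0.50 for Hras, with the exchange factor Sos1 at -0.59 and the scaffold Ksr1 at -0.54.

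Of 15 other genes that ERK induces, 14 could be compared, and with the siRNA label set against the high-glucose label 3 passed 2-fold upward and 1 downward (median log2 difference 0.54). Plaur, the urokinase receptor gene, gave 20260 under the siRNA label, against 4939 and 5203, 3.51-fold higher than the high-glucose label. The immediate early gene Ier2 was 2.98-fold higher and Hmga2, encoding a chromatin protein, 2.21-fold, though its second probe stayed under 2-fold (log2 difference 0.97). Epha4, an ephrin receptor gene, was 3.73-fold lower, with 119 under the siRNA label, against 380 and 410. Phlda1 lay just inside the line at 1.98-fold higher, and it is named after its value was seen.

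**Figure D3:**
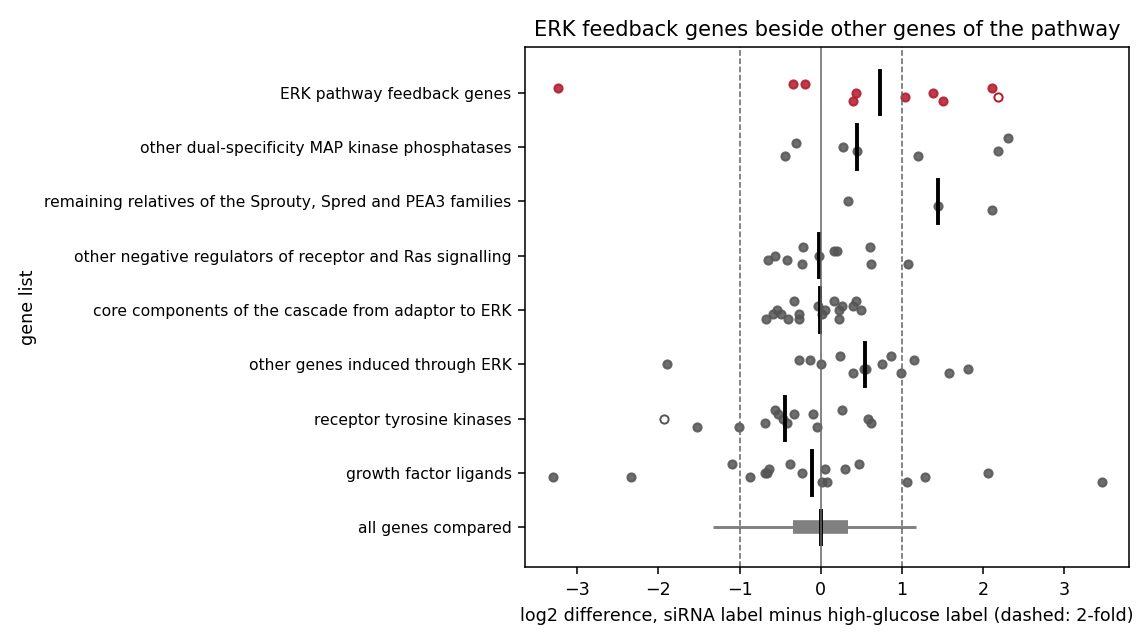
Log2 difference, siRNA label minus high-glucose label, for single genes (points, brightest probe of each, open for bounds) of the ERK feedback set and 7 other lists of the pathway, with black bars for medians. The lowest row gives all genes compared as an interquartile box and a line over the 5th to 95th percentiles. The ERK feedback genes reach from -3.23 to 2.18, while the brightest probes of the 18 core genes stay between -0.67 and 0.50.

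Upstream of the relay, receptors and ligands differed as well. Among 14 readable receptor tyrosine kinase genes, 0 passed 2-fold upward and 3 downward in the siRNA and high-glucose comparison (median -0.44). They were Pdgfrb (2.88-fold lower), Egfr (2.01-fold lower, with 2 further probes lower by 1.30 and 1.34 on the log2 scale) and Tek (at least 3.81-fold lower, not well above background under the siRNA label), and Erbb2 followed at -0.69 on the log2 scale. Of 18 growth factor genes, 4 passed 2-fold upward and 3 downward. Areg, a ligand of the EGF receptor, gave 924 under the siRNA label, against 71.7 and 65.1 (log2 difference 3.46), Hbegf, another, was 4.16-fold higher, and the other 2, Ereg and Vegfa, are named after their values were seen (2.44-fold and 2.09-fold). Igf1 was 9.87-fold lower on its brightest probe, with 3 further probes between -5.25 and -1.70 on the log2 scale. Vegfc, a ligand of the receptor genes Flt4 and Kdr, was 5.08-fold lower, and Fgf18, likewise named after its value was seen, 2.13-fold lower.

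Markers of other cell types and of dividing cells differed between the same arrays as the feedback genes. The sums below add unscaled signals of different probes, so the brightest carry them, and the siRNA-labelled array was brighter than the high-glucose one by 0.23 (log2) at the 75th percentile. Among 11 fibroblast markers, 6 passed 2-fold downward and 0 upward in the siRNA and high-glucose comparison, and their summed unscaled signal was 743210, against 918150 and 931180. Dpt (-3.08), Lum (-2.76), Fbln1 (-2.19) and Col3a1 (-1.90) had the largest log2 differences. Smooth muscle and pericyte markers were at least 2-fold lower for 4 and higher for 1 of 8, with sums of 59081, against 97075 and 98262, and Myh11 did not pass the background criterion on any of the arrays. Acta2 stood at -2.33, Pdgfrb at -1.53, Cnn1 at -1.34 and Cspg4 at 1.24. All 7 proliferation markers were at least 2-fold higher on their brightest probes, with sums of 111460, against 29338 and 30744. Mcm5 (2.39), Top2a (2.29), Mcm3 (2.28) and Ccnb1 (2.05) led, and the probes of Cdk1, named after its value was seen, reached down to 0.82. Of 11 readable endothelial markers 2 were at least 2-fold higher and 4 lower, with sums of 16873, against 13311 and 13522. Beside Tek, these included Cdh5 (1.51), Vwf (-1.26) and Esam (1.15). The 4 lower markers were all dim, with signals of 66.2 or less on every array, and 2 of them were bounds. Macrophage markers were at least 2-fold higher for 1 and lower for 3 of the 6 with a named probe (sums 40108, against 31832 and 33800). Adgre1 (-2.06), Lyz2 (-2.05) and Ptprc (-1.25) were lower. Cd14 was higher (1.52), and with 16711 under the siRNA label, against 4989 and 5420, it carries the higher sum. Only 3 of 7 epithelial markers could be read, with Krt18 at 1.90, Krt14 at 0.52 and Krt5 at 0.39 (sums 672, against 243 and 248), and Epcam, Cdh1, Krt8 and Krt7 were not well above background. The part of any of these in the values of the feedback genes was not tested.

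Across the 8 alternative ways of computing the log2 differences of members between the siRNA and high-glucose labels, with arrays kept as labelled, every member kept its direction wherever it could be computed (Dusp5 could not when probes had to be above background on every array). Several of these ways had little room to turn a direction. The series value table holds the same intensity, and averaging over probes alters Etv4 alone. Filters on dim probes left a member's value as it was or dropped it, and scaling to a median moves all members by the same amount. For 7 of the 10 at least 1 alternative moved the value by more than the spot noise, and Dusp5 was the one moved by over 1.5-fold. The genes of the other lists were not recomputed under these alternatives. Exchanging the high-glucose arrays turns all of these directions round.

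**Figure D4:**
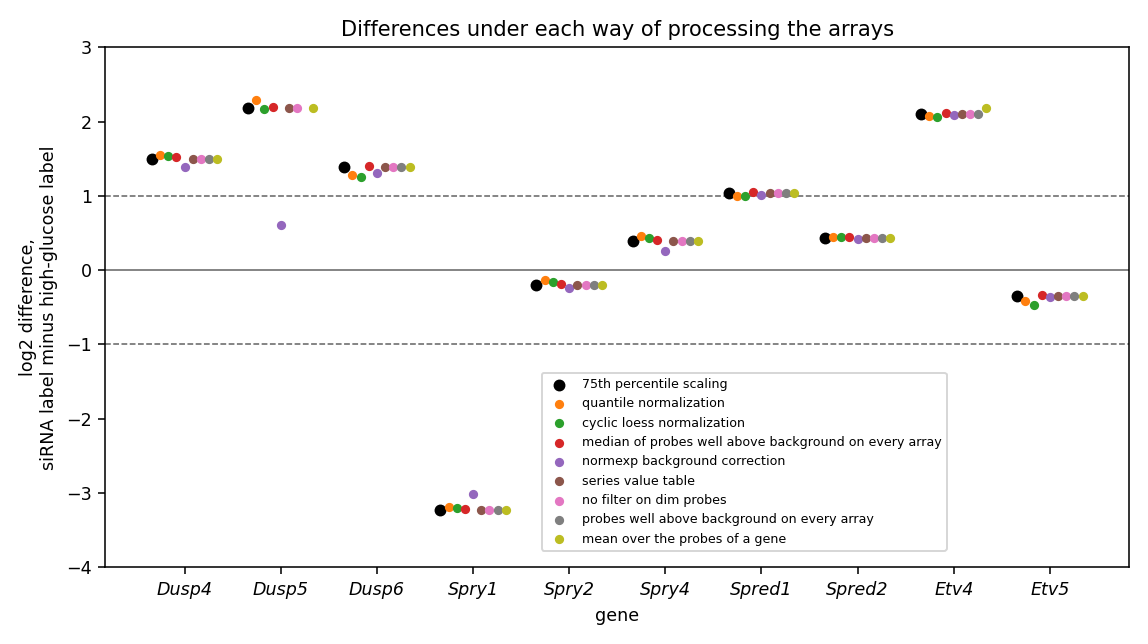
Log2 difference of each ERK feedback gene, siRNA label minus high-glucose label, under 75th percentile scaling (black) and 8 other ways of processing the same arrays (colours), with dashed lines at 2-fold. Each gene keeps its sign, and the normexp value of Dusp5, at 0.61, is the one far from its others.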

How the data were processed

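Single-colour (Cy3) Agilent arrays were read with Agilent Feature Extraction 11.0.1.1, per the file headers, which gives a background-subtracted processed signal as linear intensity with an error per spot. The value table deposited by the authors holds the same intensity: 100% of its 39030 single-spot probes matched the processed signal within a tolerance of 0.1%, its column medians being 129, 118 and 118 for the siRNA, high-glucose and normal-glucose labels. The table is thus on a linear, uncentred scale; its handling of repeated spots is unknown. The design is annotated on mm9, so probes carry no coordinates here.

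Control and outlier spots were left out, spots sharing a probe were averaged as log2, and the 75th percentile of the array was subtracted. No spot was saturated, and 67.0% to 70.6% of probes were well above background (at least 50% of their spots). Probes were named by accession from the RefSeq gene table of GRCm38.p6 (66.1% of probes), promoter windows from the RefSeq promoter table, and the brightest probe stood for a gene if any array read it above background. A difference with 1 array below background was computed against the higher of the dim value and the lowest value above background on that array. A fold of 2 or more was counted, with no test. Spot noise came from 300 probes printed 10 times. Scaling, naming and differences were tested on simulated arrays with known changes and the same noise for bright and dim probes. Those arrays shared the same probes above background, so the rule for bounds was not tried. The members and the gene lists were chosen with earlier results of these data known. All members are named, and of each other list up to 4 genes, those that differed most between the siRNA and high-glucose labels; any further gene was chosen after its value was seen. Alternatives were run with Python 3.11.15 and limma 3.58.1 in R 4.3.3. Normexp used median spot and background signals, with an offset of 50.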

Additional observations from a re-analysis of the deposited data

How the results depend on the processing

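No member's value rests on more than 1 array per group, so leaving out a replicate was not possible. No paired analysis was possible because each group has a single array. Dim signals limit Dusp5 most.

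Between the siRNA and high-glucose labels, 5 members were at least 2-fold higher, 4 with quantile normalization, 4 with normexp and 4 with probes above background on every array. A 3-fold line left 2 members higher, in this comparison and in that against normal glucose (2). With the high-glucose arrays exchanged, as the words in the file names have them, the counts of members became 1 higher and 5 lower for siRNA against high glucose, 0 and 0 for siRNA against normal glucose, and 5 and 1 for high glucose against normal glucose. The log2 differences of siRNA minus high glucose then read -1.50 for Dusp4, -2.18 for Dusp5, -1.39 for Dusp6, 3.23 for Spry1, -1.04 for Spred1 and -2.11 for Etv4, and those of siRNA minus normal glucose -0.074 for Dusp6, 0.012 for Spry1, -0.0017 for Spred1 and -0.028 for Etv4. This follows from the exchange itself.

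Over all named genes, the numbers higher and lower for siRNA against high glucose were 620 and 783 with normexp, 2237 and 2460 at 1.5-fold, and 409 and 524 at 3-fold. For siRNA against normal glucose they were 605 and 770, 2148 and 2405, and 393 and 508 in the same order, and 123 and 104 with the arrays exchanged. For high glucose against normal glucose they were 43 and 33 with normexp, 433 and 329 when dim probes were kept, 35 and 26 with probes above background on every array, 229 and 187 at 1.5-fold, and 990 and 1236 with the arrays exchanged. The causes of these shifts were not tested, apart from the exchange, the filters and the lines of 1.5-fold and 3-fold, which act by construction. The offset in normexp also shrinks the folds of dim probes by construction, and its part in the normexp counts was not separated. The series value table moved no member's value by more than the spot noise.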

Other observations

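Among the other genes that ERK induces, 13 of 14 were lower under the high-glucose label than under the normal-glucose label, by a median of -0.061 on the log2 scale, which is less than the spot noise of 0.081 for a single gene. Over all 15081 genes compared, 8370 were lower, and the median was -0.013. No replicate array bears on this pattern, and it was noticed after the values were seen.

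Within the Sprouty, Spred and PEA3 families, the relatives left out of the feedback set all lay higher on the siRNA-labelled array than on the high-glucose-labelled one, at 2.12 for Spry3, 1.44 for Spred3 and 0.34 for Etv1 on the log2 scale. The value of Spry3 rests on a dim signal under the high-glucose label. For Spred3, the high-glucose label minus the normal-glucose label was -0.59.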
